A study of Arabidopsis thaliana with 8 samples.

Results

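The response of 4 marker loci of phosphate and sulfur shortage was followed in Arabidopsis thaliana: IPS1 (AT3G09922) and AT4 (AT5G03545) for phosphate, and APR1 (AT4G04610) and LSU2 (AT5G24660) for sulfur. They were taken by gene identifier, and all 4 were found among the 3691 genes listed in both deposited tables, one for root and one for shoot. All plants were wild type of the Col-0 ecotype. Roots and shoots were collected from plants exposed to 100 µM 2,5-dimethylpyrazine (2,5-D), a volatile pyrazine, or to sterile water, each applied to a paper disc in a divided plate. The labels give an exposure of 24 hours and also 14 days of growth in the shared plate, and which of these was the time in contact with the compound is unclear. There were 4 groups of 2 libraries each, root water, root 2,5-D, shoot water and shoot 2,5-D, so 8 in all. The labels do not say whether libraries of a group came from separate plants or plates. The spread behind every p-value is that between such libraries and could be technical. How much phosphate and sulfate the medium and the plants held is not known here.

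As background, IPS1 and AT4 are RNAs that act without coding for a long protein. Each pairs with microRNA399 at a site that the microRNA cannot cut, and so keeps it away from its target PHO2, an enzyme of ubiquitin transfer that limits phosphate uptake and transport to the shoot. Both rise strongly when phosphate is short, under the transcription factor PHR1. APR1 is one of the adenosine-phosphosulfate reductases, which carry out the controlled step of sulfate reduction, and LSU2 belongs to a family of small proteins named for their response to low sulfur. Both are known to rise when sulfate is short.

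The pairing region is shown because it is what IPS1 and AT4 share, and because PHO2, measured in the same libraries, carries the sites they imitate. Sequences are RefSeq's for the TAIR10.1 assembly, found by locus. The deposited tables hold no coordinates, and the authors' build is not given in the sources used. In the mature microRNA the capitals mark the seed, bases 2 to 8, and in the transcripts they mark bases that pair with the microRNA. All sequences run 5′ to 3′.
miR399b: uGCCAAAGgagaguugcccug
IPS1 site: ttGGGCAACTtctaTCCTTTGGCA
AT4 site: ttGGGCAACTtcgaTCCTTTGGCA
PHO2, the first of 5 sites: tAGGGCAAaTCTtCTTTGGCA
The microRNA is encoded by AT1G63005, with its mature part at chr1:23345387-23345407 on the minus strand. The IPS1 site covers bases 236 to 259 of its 542-base transcript, and the AT4 site covers bases 568 to 591 of its 936-base transcript. In both, 18 of the 21 bases of miR399b find a partner, all 7 seed bases among them. Between the bases opposite miRNA positions 10 and 11 stand 3 extra bases, also in lower case. The base opposite position 11 does not pair. IPS1 and AT4 were read for sites with 3 extra bases there and PHO2 for sites with 0, so that contrast was set in advance. PHO2 held 5 such sites. The first of them, at bases 680 to 700 of the 4176-base transcript, also pairs 18 bases. Between the whole IPS1 and AT4 transcripts an alignment was found over 131 bases, with 78.6% identity.

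The start region of AT4 is shown for the P1BS motif, GNATATNC, the site of PHR1-type factors, which stands in capitals. The window runs from 250 bases before to 50 bases after the annotated start, chr5:894332-894631 on the plus strand.
AT4 start region: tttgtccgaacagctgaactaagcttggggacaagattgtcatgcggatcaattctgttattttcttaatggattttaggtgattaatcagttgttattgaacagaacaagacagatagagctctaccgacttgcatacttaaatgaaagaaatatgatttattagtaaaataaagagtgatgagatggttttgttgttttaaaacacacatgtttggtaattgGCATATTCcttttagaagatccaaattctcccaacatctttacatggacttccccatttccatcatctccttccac
The motif lay 26 bases before the AT4 start, as GCATATTC. Read on both strands, it was present in 6.25% of the 33054 windows of this length in the genome and in 7.38% of the 3674 windows of listed genes. APR1 also held 1 copy, GAATATTC, 9 bases after its start, whereas the windows of IPS1 and LSU2 held none. The IPS1 start is marked as partial in RefSeq, so its window may not begin at the true start. The core of the sulfur-responsive element, GAGAC, was found in LSU2, 2 copies on the reverse strand as GTCTC, 6 and 27 bases after the start. That core is common, being present in 33.1% of all windows, and the APR1 window held none. These are matches of letters only.

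The tables are a selected set. For 3689 of the 3691 genes the water and 2,5-D libraries did not overlap in at least 1 tissue, and no source used here gives the rule of selection, so the tables were treated as picked on these same libraries. Shares of changed genes are therefore high, and the counts of list genes are to be read against the share over all genes tested, given with them. Summed values ranged from 252869.9 to 343911.7 per library, and the sequencing depth is unknown. The shoot water pair was the loosest, with 553 genes more than 2-fold apart (values + 1) against 2 to 32 genes in the other pairs. Root markers in the tables (3 of a list of 9) summed to 121 to 128 in root water, 57.8 to 72.9 in root 2,5-D and 1.87 to 3.95 in shoots. Shoot markers (7 of 10) summed to 18952 to 19285 in shoot water, 10526 to 12206 in shoot 2,5-D and 158 to 227 in roots. The tissue labels thus held. Both sums were lower under 2,5-D in their own tissue, but markers that did not change could be missing from these selected tables. The part of the lower sums in the results below was not tested. In whole organs fewer cells of a type and less RNA per cell cannot be told apart.

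In roots the pairs moved in opposite directions under 2,5-D: both phosphate RNAs rose about 1.5-fold and both sulfur genes fell more than 2-fold. IPS1 read 349.7 and 458 in root water and 622 and 629 in root 2,5-D, in the normalized expression units of the tables. The 2,5-D libraries were both higher, lay close together, and did not overlap with water. Means were 404 ± 76.6 and 626 ± 4.53 (SD, n = 2 each), a ratio of 1.55. AT4 read 1908 and 2222 in root water and 3285 and 2748 in root 2,5-D, again without overlap. Its means were 2065 ± 222 and 3016 ± 380 (SD, n = 2 each), a ratio of 1.46. On the log2(value + 1) scale, which all changes below use, IPS1 rose by 0.64 (SE 0.18, limma adjusted p = 0.0107) and AT4 by 0.54 (SE 0.16, limma adjusted p = 0.0157).

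The rises of IPS1 and AT4 were not unusual for these tables. Of 3487 genes tested in root, 61.5% were called at an adjusted p under 0.05, 39.0% higher and 22.5% lower. Without overlap between the groups, 52.5% were higher and 32.3% lower. The median change of all tested genes was 0.26, leaving 0.38 for IPS1 and 0.28 for AT4 above it. A larger rise was seen for 27.2% of genes than for IPS1 and for 32.7% than for AT4. Both calls also depended on the fit. The IPS1 call was lost without either 2,5-D library (log2 change 0.65, adjusted p = 0.116, and 0.64, adjusted p = 0.12, in limma), and the AT4 call without the first of them (0.42, limma adjusted p = 0.165). Removing a trend with gene length brought the changes to 0.31 (limma adjusted p = 0.189) and 0.25 (limma adjusted p = 0.207).

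**Figure D1:**
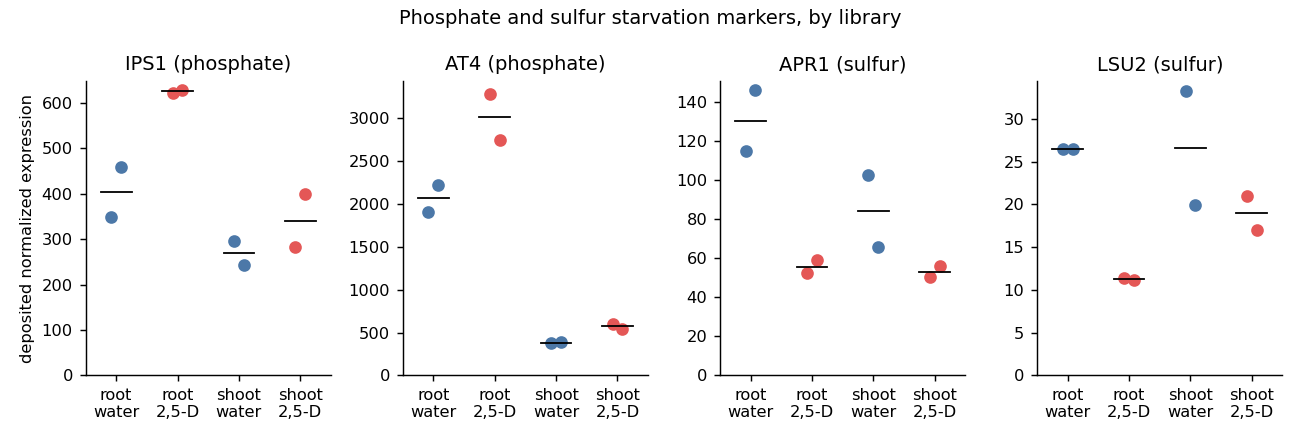
Normalized expression of IPS1, AT4, APR1 and LSU2 in each of the 8 libraries, as points by group with the group mean; each gene has its own axis. In root the 2,5-D libraries of IPS1 and AT4 lie above both water libraries and those of APR1 and LSU2 below them, while in shoot the IPS1 and LSU2 groups overlap.

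The fall of the sulfur genes in root was larger against the same background. APR1 read 115 and 146 in root water and 52.2 and 59.0 in root 2,5-D. The groups were well apart, with means of 130.5 ± 21.9 and 55.6 ± 4.78 (SD, n = 2 each), and the water level was 2.35 times the 2,5-D level. LSU2 read 26.5 and 26.4 in root water and 11.4 and 11.2 in root 2,5-D. Its pairs were nearly identical within each group, with means of 26.5 ± 0.0566 and 11.3 ± 0.177 (SD, n = 2 each) and the same ratio of 2.35. APR1 fell by 1.21 (SE 0.18, limma adjusted p = 0.000616) and LSU2 fell by 1.16 (SE 0.15, limma adjusted p = 0.000344) on the log2 scale. Only 2.29% of tested genes had a lower change than APR1 and 2.98% a lower change than LSU2. Both stayed called under every alternative tried, including each left-out library. APR1 shares 79.4% of its bases with APR3 over 1514 of its 1935 transcript bases, and LSU2 shares 79.2% with LSU4 over 610 of 823. No source used here says how reads of such relatives were divided. APR1 also overlaps AT4G04614 on the other strand, by 21 of its 2187 bases.

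**Figure D2:**
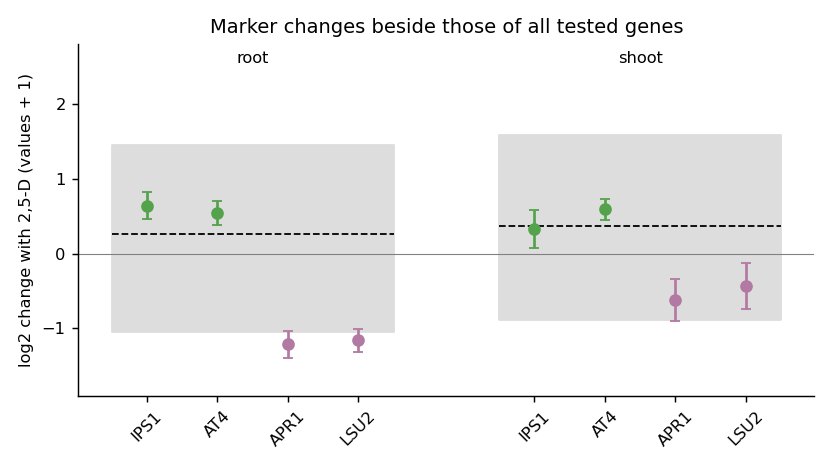
Log2 change (2,5-D minus water, on values + 1) of the 4 genes in root and in shoot, points with standard errors; the grey band runs from the 5th to the 95th percentile of all tested genes of that organ and the dashed line is their median. In root IPS1 (0.64) and AT4 (0.54) lie inside the band (-1.04 to 1.45) and APR1 (-1.21) and LSU2 (-1.16) below it, whereas in shoot all 4 lie inside (-0.89 to 1.58).

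In shoots the signs were the same, but no change of the 4 passed the test. IPS1 read 295 and 243 in shoot water and 283 and 399 in shoot 2,5-D, so the groups overlapped. Means were 269 ± 37.2 and 341 ± 82.0 (SD, n = 2 each), and the log2 change of 0.33 (SE 0.25, limma adjusted p = 0.337) was close to the median of all tested shoot genes, 0.37. With the libraries set to equal medians the IPS1 value was -0.09, and with the length trend removed it was 0.88. Its direction and size in shoot thus depend on the scaling. AT4 read 374 and 384 in shoot water and 603 and 537 in shoot 2,5-D, a ratio of 1.5 with tight, separate pairs. Its means were 379 ± 6.97 and 570 ± 46.7 (SD, n = 2 each), and its log2 change was 0.59 (SE 0.14, limma adjusted p = 0.0574). That change was 0.17 with equal medians and 0.83 with the length trend removed.

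APR1 read 103 and 65.8 in shoot water and 50.5 and 55.8 in shoot 2,5-D. The groups did not overlap, but the water libraries differed from each other by more than the lower of them differed from the 2,5-D libraries. Means were 84.3 ± 26.2 and 53.2 ± 3.72 (SD, n = 2 each), and the log2 change was -0.62 (SE 0.28, limma adjusted p = 0.157). LSU2 read 33.3 and 19.9 in shoot water and 21.0 and 17.0 in shoot 2,5-D, so its groups overlapped, with means of 26.6 ± 9.50 and 19.0 ± 2.86 (SD, n = 2 each). Its log2 change was -0.43 (SE 0.31, limma adjusted p = 0.314). With equal medians APR1 was at -1.04 and LSU2 at -0.83, and with the length trend removed at -0.92 and -0.11. None of the 4 genes passed the test in either of these settings. Of all 3376 shoot genes tested, 16.1% passed with equal medians and 0% with the length trend removed.

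None of 3376 shoot genes was called, 0% of those tested, with 0.0524 as the smallest limma adjusted p, and 1664 genes had an unadjusted p under 0.05. Groups did not overlap for 51.0% of shoot genes on the higher side and 27.0% on the lower side. The shoot water libraries bore on this. Without the second shoot water library APR1 stood at -0.94 (limma adjusted p = 3.47e-07) and LSU2 at -0.79 (limma adjusted p = 4.23e-05), and 1620 genes were called higher and 860 lower. Without the first, IPS1 stood at 0.47 (limma adjusted p = 0.0194) and AT4 at 0.57 (limma adjusted p = 0.00542), with 1435 genes higher and 686 lower. In that fit APR1 was at -0.30 (limma adjusted p = 0.126) and LSU2 at -0.07 (limma adjusted p = 0.756), so the size of both shoot changes rested on the first water library. Without the second, IPS1 was at 0.19 (limma adjusted p = 0.336). AT4 also passed without the second, at 0.60 (limma adjusted p = 0.00117). In these fits the lone water library was assumed to vary like the 2,5-D pair.

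The root and shoot changes were set against each other in 1 fit over all 8 libraries. Root minus shoot was 0.32 (SE 0.32, limma adjusted p = 0.496) for IPS1, -0.04 (SE 0.22, limma adjusted p = 0.896) for AT4, -0.59 (SE 0.35, limma adjusted p = 0.253) for APR1 and -0.73 (SE 0.34, limma adjusted p = 0.154) for LSU2. None of the 4 differences passed the test, while 29.1% of 3215 tested genes did, 7.87% with the root change above the shoot change and 21.2% with it below. That split depends on the scaling, being 6.81% above and 2.24% below with equal medians and 2.77% and 3.02% with the length trend removed. Without the first shoot water library the differences were -0.91 for APR1 and -1.09 for LSU2, and without the second they were -0.27 and -0.37. Both thus depended on which shoot water library was kept. The spread in those fits leaves out that between the shoot water libraries, the loosest pair, so no test is given for them.

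Levels also differed by organ, although it is not known whether the tables share a scaling. AT4 was 5.45 times as high in root as in shoot in water and 5.29 times in 2,5-D, and its order was root 2,5-D, root water, shoot 2,5-D and shoot water, with no overlap between neighbours. IPS1 followed the same order, but root water overlapped with shoot 2,5-D and the shoot groups overlapped with each other. APR1 was highest in root water, followed by shoot water, and the 2,5-D groups of both organs overlapped at the bottom. LSU2 in root water overlapped with shoot water, shoot water overlapped with shoot 2,5-D, and the level was lowest in root 2,5-D, which stood apart from all other groups.

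A difference taken within a library does not depend on a factor that scales the whole library, apart from the pseudocount. A trend with gene length can still shift it, and the score was not taken with that trend removed. The mean log2 level of IPS1 and AT4 less that of APR1 and LSU2 was 3.86 and 3.99 in root water and 5.80 and 5.61 in root 2,5-D. The mean thus moved from 3.92 to 5.70, by 1.78 with a pooled SD of 0.12. In shoot it was 2.48 and 3.04 in water and 3.62 and 3.86 in 2,5-D, a move from 2.76 to 3.74, by 0.98 with a pooled SD of 0.30. In both organs the 2,5-D libraries were above the water libraries. No test is given for this score, and with 2 libraries against 2 an exact permutation test could not go below 0.333.

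**Figure D3:**
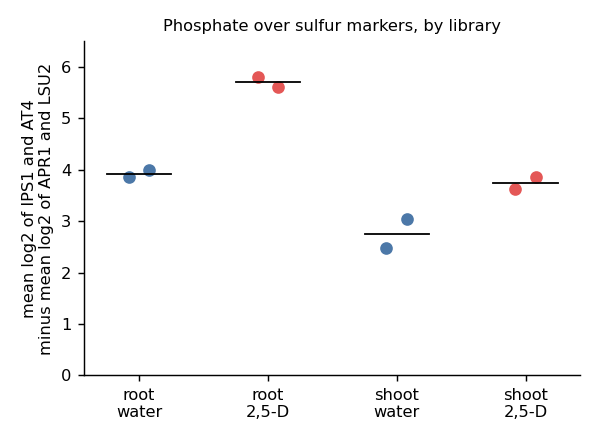
Mean log2(value + 1) of IPS1 and AT4 minus that of APR1 and LSU2 in each of the 8 libraries, by organ and treatment, with group means. The difference is higher in 2,5-D than in water in root (5.70 against 3.92) and in shoot (3.74 against 2.76).

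Other genes of the phosphate response were read from a list of 75, of which 28 are in the tables. In root 25 were tested, and 11 rose (44.0%, against 39.0% of all tested genes), 2 fell (8.0%, against 22.5%) and 12 were not called. The share of rises was thus near that of all genes. It was below it with equal medians (24.0% against 29.9%) and with the length trend removed (20.0% against 27.0%). The median change was 0.41, beside 0.26 for all genes. PHO2, the target that IPS1 and AT4 shield from miR399, fell in root. It read 27.0 and 32.7 in root water and 13.7 and 15.2 in root 2,5-D, a log2 change of -1.0 (SE 0.17, limma adjusted p = 0.0011). In shoot PHO2 read 14.0 and 13.3 in water and 15.5 and 12.7 in 2,5-D, with overlap. None of the 6 miR399 loci of the list is in the tables, so their levels are not known here.

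Of 12 other regulators tested in root, 5 rose (41.7%, against 39.0% of all tested genes) and PHO2 fell (8.33%, against 22.5%), so the share of rises was near that of all genes. WRKY75, a transcription factor known for promoting phosphate uptake, read 93.8 and 85.4 in root water and 151 and 132 in root 2,5-D (log2 change 0.65, limma adjusted p = 0.00721). MYB62, a transcription factor of the low-phosphate response, was near 0 in root water, at 0.22 and 0.18, and read 2.47 and 1.92 in root 2,5-D (log2 change 1.41, limma adjusted p = 0.000466). At such low values the size depends on the pseudocount, and it was 2.93 with a pseudocount of 0.1. SPX3, one of the SPX proteins that sense phosphate status, read 19.1 and 38.7 in root water and 49.5 and 43.6 in root 2,5-D (log2 change 0.75, limma adjusted p = 0.0388). Its water libraries differed about 2-fold from each other, and without the first of them the change was 0.26 (limma adjusted p = 0.148). WRKY45 (0.54, limma adjusted p = 0.0301) and AT1G25550, of the myb-like family (0.64, limma adjusted p = 0.00637), also rose. ZAT6 at 0.41 and PDR2 at -0.38 were not called (limma adjusted p = 0.0551 and 0.072).

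Of 13 enzymes and transporters of phosphate release and lipid exchange tested in root, 6 rose (46.2%, against 39.0% of all tested genes) and 1 fell (7.69%, against 22.5%), so the share of rises was near that of all genes. The glycerophosphodiester phosphodiesterase GDPD2 read 343 and 231 in root water and 576 and 582 in root 2,5-D (log2 change 1.04, limma adjusted p = 0.00208). The ribonuclease RNS1 read 3.61 and 3.41 in root water and 6.72 and 9.26 in root 2,5-D (log2 change 0.98, limma adjusted p = 0.0019). Both were clearly apart between groups. MGD3 (0.75, limma adjusted p = 0.0203) and MGD2 (0.53, limma adjusted p = 0.0196), which make galactolipids that replace phospholipids, rose, as did the acid phosphatase PAP7 (0.47, limma adjusted p = 0.0275) and G3PP1, a glycerol-3-phosphate permease (0.57, limma adjusted p = 0.0205). PPCK1, a kinase of phosphoenolpyruvate carboxylase, read 50.2 and 69.1 in root water and 31.9 and 30.6 in root 2,5-D (log2 change -0.90, limma adjusted p = 0.00282). The lipid enzymes PLDZETA2 at 0.43, SQD2 at 0.36 and GDPD1 at 0.32 were not called (limma adjusted p = 0.0625, 0.0956 and 0.136). Of the 13 calls, those of PHO2, RNS1 and GDPD2 held under every alternative. That of MYB62 held in the 10 of 12 where it was tested. Without the first or the second root 2,5-D library MYB62 was under the filter, and 2 of the other 10 rises passed in each case, 8.33% of 24 genes tested, against 18.3% and 21.1% of all genes.

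In shoot 28 of the phosphate genes were tested and 0 were called, like all genes there. The values were mostly higher in 2,5-D: 27 of 28 changes were above 0 (63.2% of all shoot genes), and 21 genes (75.0%, against 51.0%) were higher without overlap. Their median change was 0.50, beside 0.37 for all genes. This direction depends on the scaling, since with the libraries set to equal medians 15 of the 28 changes were above 0 (49.0% of all shoot genes). The largest change was that of the acid phosphatase PAP5, at 9.31 and 7.93 in shoot water and 21.0 and 25.2 in shoot 2,5-D (log2 change 1.33, limma adjusted p = 0.0524). PAP5 was listed at 0 in all root libraries. PAP25 (1.28), the phosphate transporter PHT1;7 (1.25) and AT5G15070, of the phosphoglycerate mutase-like family (0.99), had the same limma adjusted p of 0.0524. HRS1, a repressor that links nitrate and phosphate signals, was the exception at -0.88 (limma adjusted p = 0.0638).

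**Figure D4:**
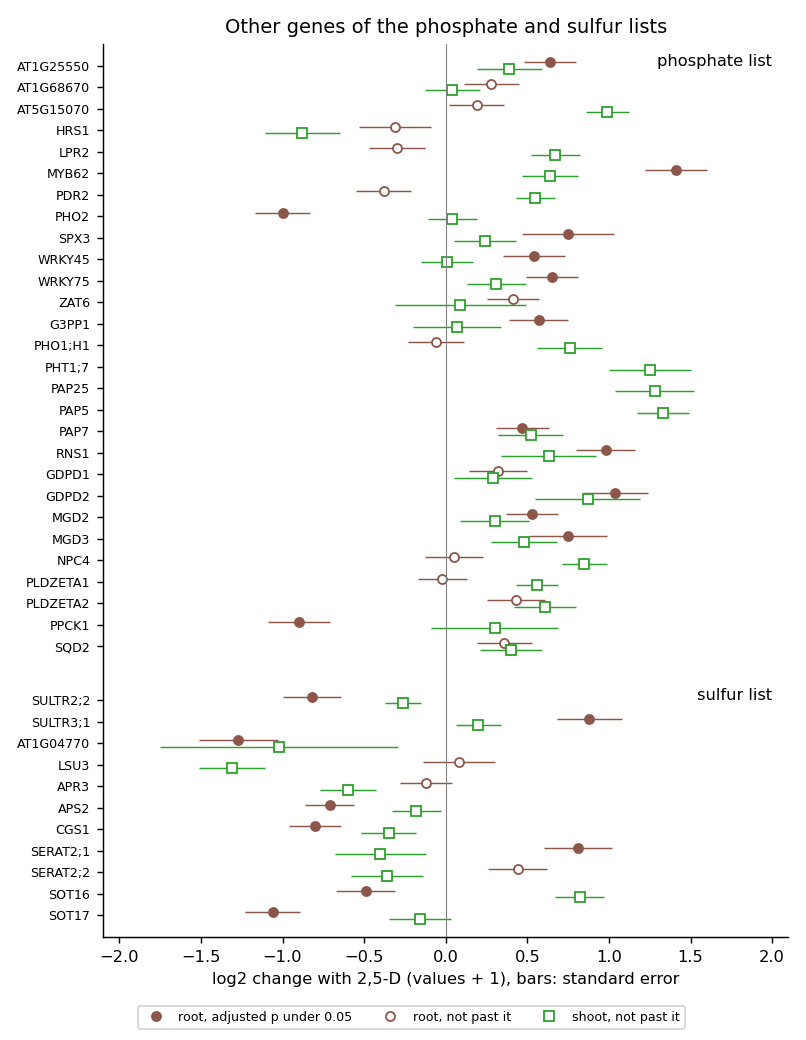
Log2 change (2,5-D minus water, on values + 1) in root and in shoot of the other phosphate and sulfur genes in the tables; circles are root (filled where called at a limma adjusted p under 0.05) and open squares are shoot, with standard errors. Phosphate genes lie mostly above 0 in shoot (27 of 28, or 15 with equal medians), and the sulfur genes centre below 0 in both organs (medians of -0.49 and -0.35).

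The other sulfur genes, 11 of a list of 50, centred below 0. In root 6 fell (54.5%, against 22.5% of all tested genes), 2 rose (18.2%, against 39.0%) and 3 were not called, with a median change of -0.49. AT1G04770, of the TPR-like family, read 11.7 and 21.0 in root water and 5.76 and 6.09 in root 2,5-D (log2 change -1.27, limma adjusted p = 0.00188). The ATP sulfurylase gene APS2, whose enzyme makes the substrate of APR1, read 55.5 and 56.8 in root water and 32.9 and 35.1 in root 2,5-D (log2 change -0.71, limma adjusted p = 0.00359). CGS1, which commits cysteine to methionine synthesis, read 234 and 245 in root water and 131 and 143 in root 2,5-D (log2 change -0.80, limma adjusted p = 0.00224). All 3 were lower in both 2,5-D libraries than in either water library, as were 32.3% of all tested root genes.

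The sulfotransferases SOT17 and SOT16, which finish the glucosinolate core, fell by 1.06 (limma adjusted p = 0.00102) and by 0.49 (limma adjusted p = 0.035) on the log2 scale. Among sulfate transporters SULTR2;2 fell by 0.82 (limma adjusted p = 0.00375) and SULTR3;1 rose by 0.88 (limma adjusted p = 0.00413). SERAT2;1, a serine acetyltransferase that supplies the carbon skeleton of cysteine, read 46.9 and 72.7 in root water and 107 and 99.4 in root 2,5-D (log2 change 0.81, limma adjusted p = 0.00875). Close relatives of APR1 and LSU2 were not called in root: APR3 stood at -0.12 (limma adjusted p = 0.536) and LSU3 at 0.08 (limma adjusted p = 0.753), the latter with a sign that turns when medians are set equal (-0.02). SERAT2;2 was at 0.44 (limma adjusted p = 0.053). Of the 8 calls, that of SOT17 held under every alternative. Without the first root 2,5-D library 2 of the falls (18.2%, against 13.1% of all genes) and 0 of the rises passed, and without the second 5 sulfur genes were lower (45.5%, against 16.6%) and 0 higher.

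In shoot 0 of the 11 sulfur genes were called, and 7 (63.6%, against 27.0% of all shoot genes) were lower without overlap. LSU3 read 19.0 and 14.6 in shoot water and 6.93 and 5.41 in shoot 2,5-D (log2 change -1.31, limma adjusted p = 0.0524). APR3 read 126 and 111 in shoot water and 74.5 and 80.7 in shoot 2,5-D (log2 change -0.60, limma adjusted p = 0.0677). SOT16 lay the other way, at 195 and 205 in shoot water and 367 and 342 in shoot 2,5-D (log2 change 0.82, limma adjusted p = 0.0524). AT1G04770 read 50.2 and 12.7 in shoot water and 9.82 and 14.8 in shoot 2,5-D, and its value of -1.02 (limma adjusted p = 0.312) rested on 1 water library, being -0.07 without it. SERAT2;1 was at -0.40 (limma adjusted p = 0.305).

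The genes whose pattern was most like that of each member were found by Pearson's r over the 8 libraries, after each organ was centred on its own mean, among 3215 genes. The points share libraries and the treatment contrast, so the values are a description only. For IPS1 they were the galactolipid synthase gene MGD2 (0.995), AT5G09570 (0.976), annotated as Cox19-like, and AT3G29970 (0.956), annotated as a B12D protein. For AT4 they were GLX2-5 (0.983), AT1G17145 (0.983), annotated as a RING/U-box protein, and AT2G16890 (0.981), annotated as a UDP-glycosyltransferase. For APR1 they were GAI (0.999), a DELLA repressor of gibberellin response, the kinase gene CIPK3 (0.995) and AT5G03230 (0.991). For LSU2 they were the transcription factor genes IDD2 (0.980) and BHLH32 (0.973) and AT1G70470 (0.975). MGD2 was the only gene of the phosphate or sulfur lists among the 12.

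**Figure D5:**
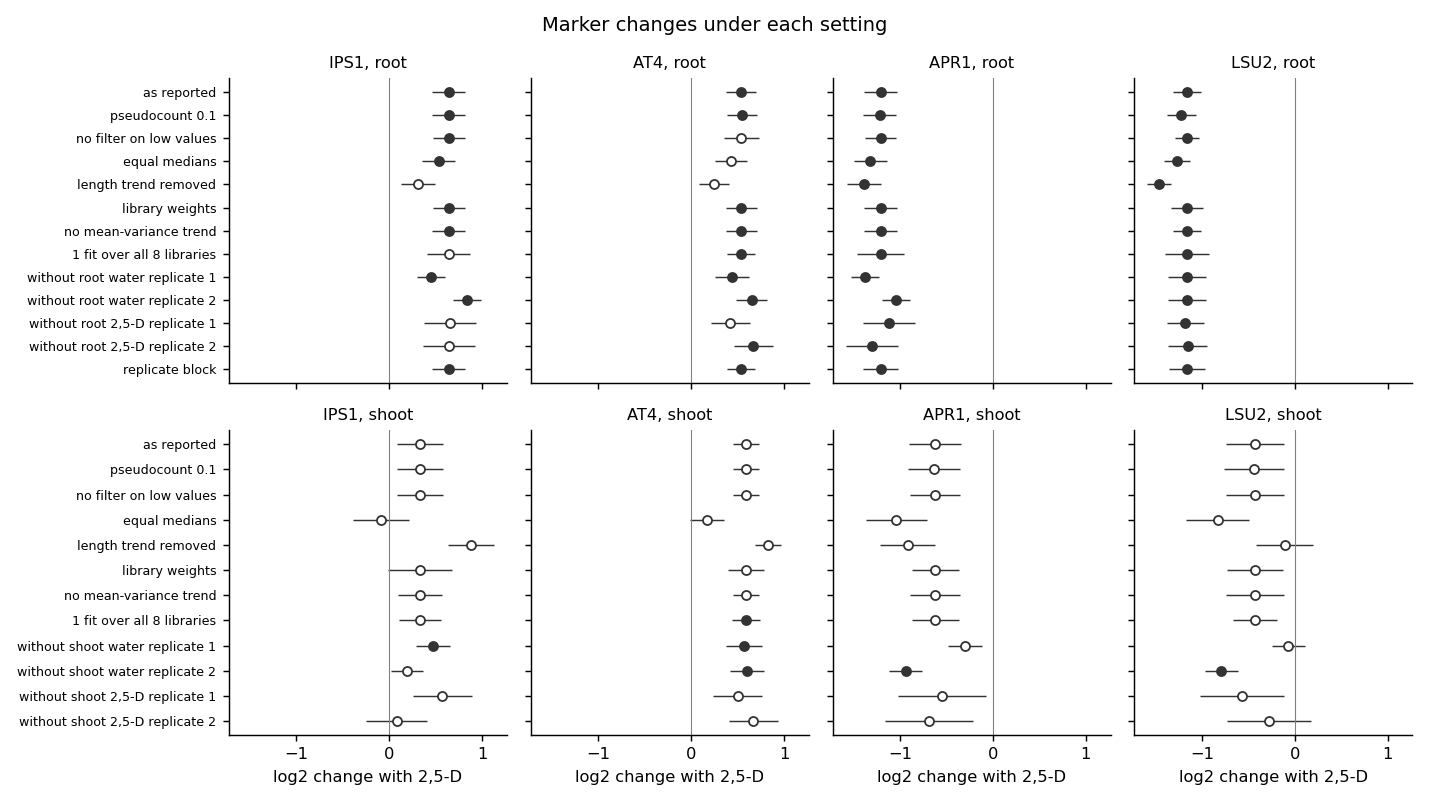
Log2 change of the 4 genes in root and in shoot under each processing alternative, on the log2(value + 1) scale unless the pseudocount is the setting; bars are standard errors and filled points are called at a limma adjusted p under 0.05. In root APR1 and LSU2 stay called under all settings shown, with -1.04 as the value closest to 0, whereas IPS1 and AT4 lose their call under 4 settings each.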

How the data were processed

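Per the labels' protocols, total RNA went into libraries of a DNBSEQ kit. HISAT2 2.0.4 is named in the submitters' processing notes. No source used here names the quantifier, annotation, genome build or filter on genes. The authors deposited 1 table per organ with a normalized expression signal whose unit is not named, and raw counts were not used here, so depth is unknown. Both shoot 2,5-D columns carry the same replicate number, so their numbers here are only names.

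From these values log2(value + 1) was fitted in each organ with limma 3.58.1 (R 4.3.3, mean-variance trend) over genes with a mean of at least 1, with Benjamini-Hochberg adjustment over all of them and a threshold of 0.05. One fit over 8 libraries compared the organs. Named genes are the 4 loci, every called gene of the phosphate and sulfur lists, up to 5 uncalled ones per list and organ with the largest change, and the 3 genes most like each locus. The loci and lists were chosen with earlier results of these data known. Alternatives were a pseudocount of 0.1, no filter, equal medians, removal of a length trend, library weights, no variance trend, 1 fit over 8 libraries, a replicate block and each library left out. Sequences, motifs and alignments (BLAST 2.17.0) come from RefSeq, TAIR10.1, to which all 3691 loci matched.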

Additional observations from a re-analysis of the deposited data

Results flagged for a closer look

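Of 36 other phosphate and sulfur genes tested, 10 (27.8%, against 29.1% of all 3215 genes) differed between root and shoot in their response to 2,5-D by the test of that difference (root change minus shoot change, log2, limma over 8 libraries), a share like that of all genes. With equal medians 2 of the 36 did (5.56%, against 9.05%). The 7 of them that the rule for named genes covers follow. MYB62 was higher by 0.77 (adjusted p = 0.0493), at 0.22 and 0.18 in root water, 2.47 and 1.92 in root 2,5-D, 4.22 and 5.59 in shoot water and 7.84 and 8.45 in shoot 2,5-D. The ubiquitin-transfer enzyme gene PHO2 gave -1.04 (limma adjusted p = 0.0245), PDR2 gave -0.93 (limma adjusted p = 0.0253) and AT5G15070 gave -0.80 (limma adjusted p = 0.0317). PDR2 read 24.5 and 28.2 in root water, 18.1 and 21.9 in root 2,5-D, 15.1 and 14.4 in shoot water and 22.5 and 21.7 in shoot 2,5-D, so that its groups were apart in opposite directions. Of the sulfur genes, the low-sulfur gene LSU3 gave 1.39 (limma adjusted p = 0.0343), SOT16 gave -1.31 (limma adjusted p = 0.0212) and SOT17 gave -0.90 (limma adjusted p = 0.0484). SOT17 read 67.0 and 85.0 in root water, 35.0 and 36.4 in root 2,5-D, 43.1 and 32.8 in shoot water and 33.3 and 33.7 in shoot 2,5-D. The other 3, LPR2 (-0.97), PLDZETA1 (-0.58) and NPC4 (-0.80), fall outside that rule and are named after their values were seen. Of all genes 0 to 2 in either direction passed when any root or shoot 2,5-D library was left out.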

How the results depend on the processing

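APR1 and LSU2 kept their fall in root under all 12 alternatives, from -1.38 to -1.04 and from -1.18 to -1.15 with 1 library left out. Root IPS1 lost its call with the length trend removed (0.31) and in 1 fit over 8 libraries (0.64, limma adjusted p = 0.0709), and ranged from 0.45 to 0.84 with a library left out. Root AT4 lost it without the filter (0.54, limma adjusted p = 0.0549), with equal medians (0.43) and with the length trend removed (0.25), and ranged from 0.42 to 0.67. Root LSU3 turned to -0.02 with equal medians and to -0.22 with the length trend removed, with a range of -0.26 to 0.43. Equal medians moved the median change of all genes by -0.11 in root and -0.39 in shoot, and the length trend by -0.15 and -0.33.

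In shoot IPS1 was -0.09 with equal medians and 0.08 to 0.57 with a library left out. AT4 passed in 1 fit over 8 libraries (0.59, limma adjusted p = 0.0244) and ranged from 0.50 to 0.67. APR1 ranged from -0.94 to -0.30 and LSU2 from -0.79 to -0.07. The root minus shoot difference of IPS1 was -0.46 with the length trend removed, and that of AT4 0.25 with equal medians. With a library left out, it ranged from -0.17 to 0.09 for AT4, from -0.91 to -0.27 for APR1 and from -1.09 to -0.37 for LSU2.

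In 1 fit over 8 libraries 567 root genes were higher (637 to 1610 with a library left out, and 456 to 902 lower). In that fit 5 of 25 other phosphate genes were higher in root (20.0%, against 17.6% of all genes). Only 1 of the 25 was lower, against 18.8% of all genes. Of 11 other sulfur genes 1 was higher (9.09%, against 17.6%) and 4 were lower (36.4%, against 18.8%). Phosphate genes higher in root were 6 with equal medians (24.0%, against 29.9% of all genes) and 5 with the length trend removed (20.0%, against 27.0%). Sulfur genes higher were 1 with that trend removed (9.09%, against 27.0%). The ranges below, with a library left out, cannot be read on their own, since calls over all genes moved widely in the same fits. In root the share of phosphate genes called higher was below that of all genes in some of these fits and above it in another. With a library left out, phosphate calls in root were 2 to 16 higher and 1 to 4 lower, and sulfur calls 0 to 3 higher and 2 to 6 lower. Shoot calls were 69 higher and 476 lower with equal medians, 1015 and 508 in 1 fit over 8 libraries, and 0 to 1620 and 0 to 860 with a library left out. Phosphate calls in shoot were 9 higher and 1 lower in 1 fit, and 0 to 19 and 0 to 2 with a library left out. The 9 rises in 1 fit were 36.0% of the 25 phosphate genes tested, near the 31.6% of all genes. The 1 fall among those 25 was a smaller share than the 15.8% of all genes. Sulfur calls in shoot were 1 higher (9.09%, against 31.6%) and 2 lower (18.2%, against 15.8%) in 1 fit. With equal medians 1 was lower (9.09%, against 14.1%). The shoot calls of both lists also moved with a library left out. The cause of these shifts was not tested.

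Whether the root replicate numbers pair the libraries is not settled. Across genes r was -0.05 between deviations of same-numbered libraries, but with 2 pairs this cannot decide it. With a replicate block the root changes of IPS1, AT4, APR1 and LSU2 were 0.64, 0.54, -1.21 and -1.16, all called by limma, with 1393 genes higher and 792 lower. No paired analysis was possible in shoot because both 2,5-D columns carry the same number. With 2 libraries a group and unknown depth, values near 1 in these tables carry little weight.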
